A study of Rattus norvegicus and Mus musculus with 22 samples.

Results

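Bone morphogenetic proteins (BMPs) are secreted ligands that bring together type I and type II receptor kinases on the cell surface. The activated type I receptor phosphorylates Smad1, Smad5 and Smad9, which enter the nucleus with Smad4 and switch on target genes such as Id1 and Id3. Secreted antagonists such as gremlin 1 bind the ligands outside the cell. Inherited pulmonary arterial hypertension is linked to loss-of-function variants of the type II receptor gene Bmpr2 and, less often, of Acvrl1, Eng and Smad9.

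Here 10 genes of this pathway were followed by symbol among the 22081 genes listed in each rat count table. They are the receptors and co-receptor Bmpr2, Bmpr1a, Acvrl1 and Eng, the signal transducers Smad1, Smad5 and Smad9, the targets Id1 and Id3, and the antagonist Grem1. All 10 symbols were found in the 3 rat tables. The rule used no measured value of these samples, but the genes were chosen with earlier results of these data known.

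The animals were wild-type (WT) rats and rats lacking the cytokine interleukin-6, labelled IL6-KO. All of them received Sugen-Hypoxia, a VEGF-receptor inhibitor combined with low oxygen that is used to model pulmonary hypertension. The labels give no untreated group, and no strain, sex or age. RNA was sequenced from whole lung at day 7 and at day 56, with 3 libraries for each genotype and day. It was also sequenced from lung cells selected with magnetic beads for the surface protein CD4 at day 7, with 2 libraries for each genotype (the CD4 isolates). Nothing in the labels says that libraries of a group came from separate animals, so the p-values measure the spread between these libraries, which may be technical. In whole lung, fewer cells of a type and less RNA per cell cannot be told apart.

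The lung libraries of day 7 held 15011692 to 23590070 counts each, those of day 56 held 14415060 to 22961232, and the CD4 isolates held 11477533 to 12930732. Levels are given as CPM, counts scaled to a common library size, on 1 scale for all 16 libraries, and no level is compared between genes because no transcript lengths were used. The targeted gene Il6 was near the floor in lung. It had 5, 11 and 6 counts in WT and 8, 5 and 2 in IL6-KO at day 7, where the genotypes overlapped. By day 56 it had 6, 6 and 5 counts in WT and 0, 2 and 3 in IL6-KO, and in the isolates 48 and 20 against 8 and 17. The labels do not say which part of Il6 is deleted, so reads from the rest of the gene check nothing, and the genotypes are used as labelled. At day 56 the third WT library stood apart: on the first principal component, 42.9% of the variance of that day's table, the WT libraries lay at -44.9, -33.9 and 17.6 and the IL6-KO libraries between 16.4 and 22.6. Values without that library are given beside the main results that it moved. That library lay among the IL6-KO libraries on this component, so leaving it out favours a wider genotype difference over the genes at large. Single genes can go the other way: the log2 fold change of Grem1 at day 56 was -1.70 with it and -1.27 without it. The p-values without it are no independent support.

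Promoter sequence was read from RefSeq (rat build GRCr8) for 9 of the 10 genes, as the 200 bases from 250 to 51 bases before the transcription start. A GC-rich element known from BMP-responsive genes (GGCGCC, which reads the same on both strands) occurred in 6.56% of the 33469 promoter windows of that length. The short Smad-binding letters CAGAC, or GTCTG on the other strand, occurred in 36.59% of them. Among the 9 genes, GGCGCC was found in 1 window, that of Grem1, and CAGAC or GTCTG in 2, those of Eng and Smad9. The windows of Bmpr2, Eng, Smad1 and Smad5 overlap the annotated span of their own gene, so they are not purely upstream sequence. The windows of Grem1, the gene with the largest genotype difference in lung, and of Id1 and Id3, the best known targets, are printed 5′ to 3′ on the gene's strand with GGCGCC in capitals. They lie at chr3:120978370-120978569 (minus strand), chr3:161671314-161671513 (plus strand) and chr5:153656041-153656240 (plus strand), directly upstream of the annotated genes.
Grem1: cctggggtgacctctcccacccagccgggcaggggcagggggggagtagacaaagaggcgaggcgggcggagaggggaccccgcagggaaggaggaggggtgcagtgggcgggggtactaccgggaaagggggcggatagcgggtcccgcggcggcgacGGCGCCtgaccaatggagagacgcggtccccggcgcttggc
Id1: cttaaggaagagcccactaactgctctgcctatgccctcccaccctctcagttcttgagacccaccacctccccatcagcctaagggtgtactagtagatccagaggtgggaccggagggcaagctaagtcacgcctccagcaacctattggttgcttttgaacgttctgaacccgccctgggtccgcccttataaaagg
Id3: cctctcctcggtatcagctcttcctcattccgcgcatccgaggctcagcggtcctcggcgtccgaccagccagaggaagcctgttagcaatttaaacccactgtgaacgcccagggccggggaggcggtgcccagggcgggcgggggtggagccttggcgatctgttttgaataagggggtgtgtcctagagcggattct
A match is a description of the letters and not a binding site, and a window without them says nothing of the factor.

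**Figure D1:**
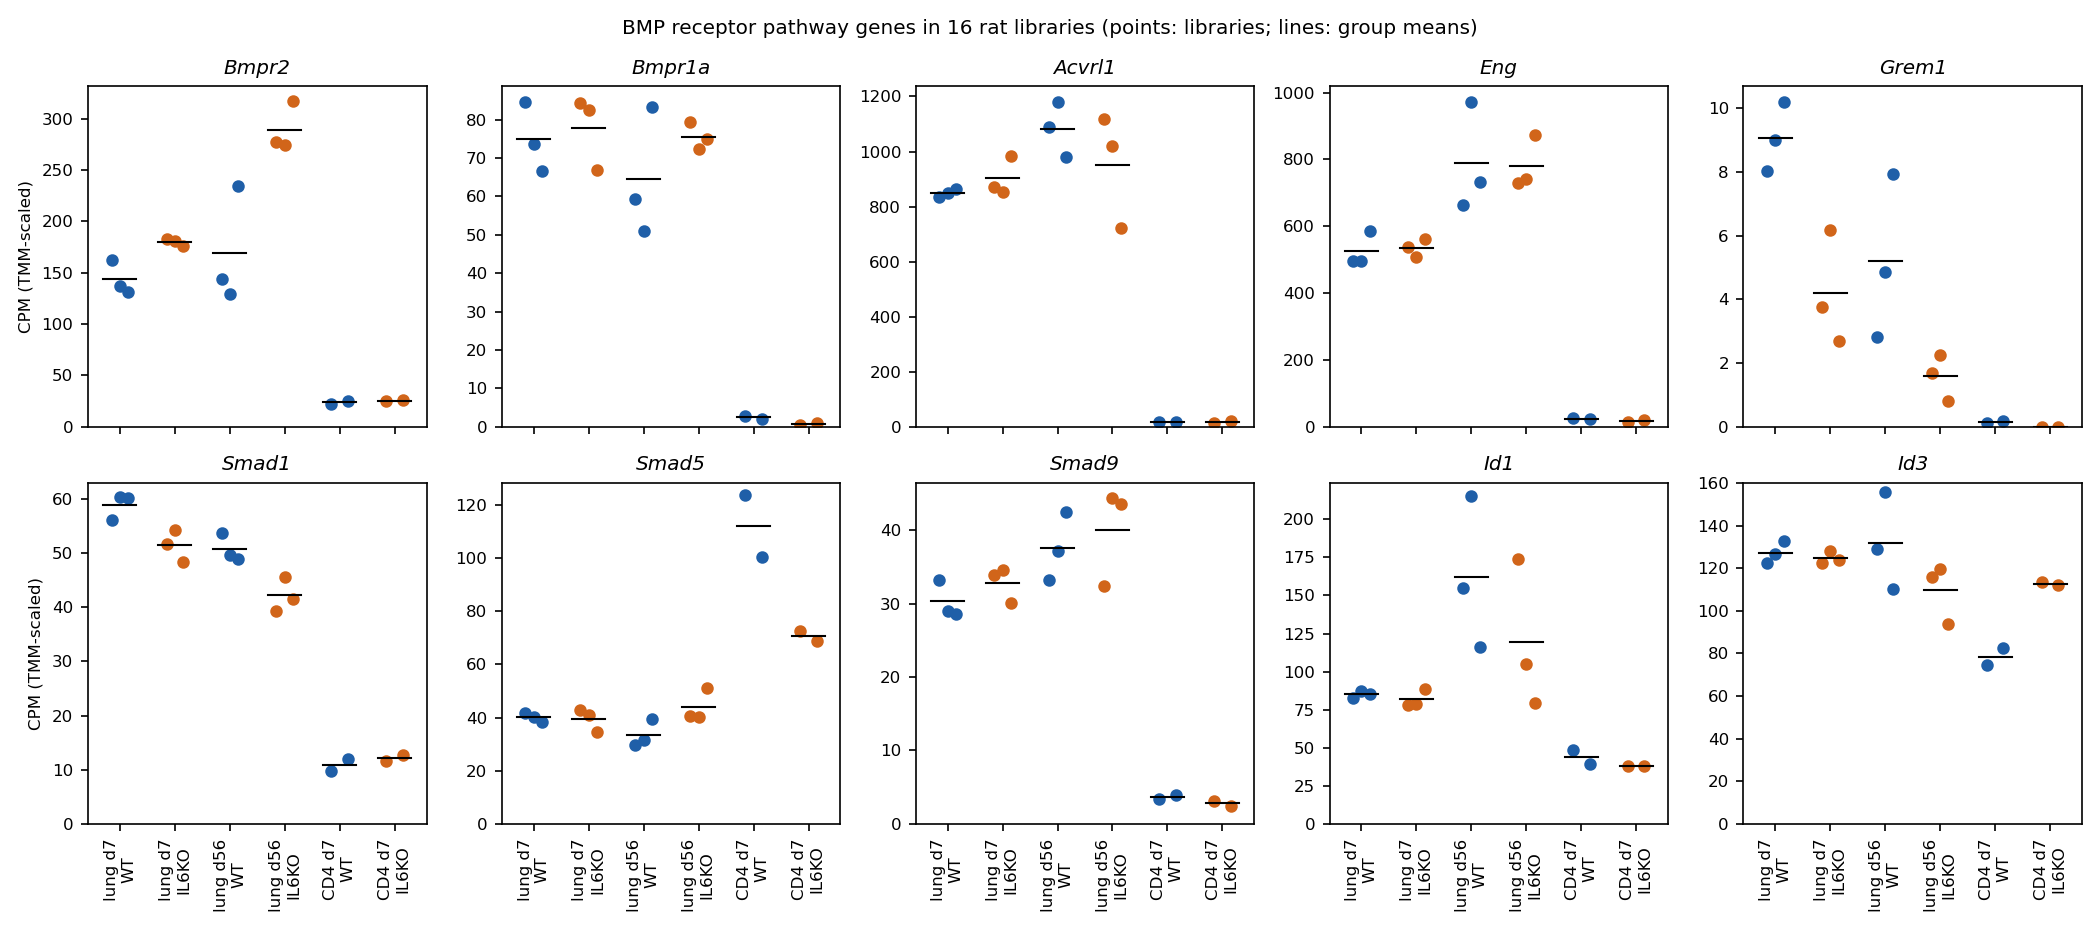
Level of each of the 10 genes in CPM (vertical axes, each starting at 0) in the 6 rat groups (horizontal axis: whole lung of day 7 and day 56 and CD4 isolates of day 7, each WT and IL6-KO); points are libraries and lines are group means. Smad5 is the only gene whose 4 isolate points lie above all 6 points of day 7 lung, and Grem1 lies lower in IL6-KO than in WT lung at both days without overlap.

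The first question was whether the loss of interleukin-6 changed these genes in the lung. None of the 10 genes passed the test at day 7 (edgeR quasi-likelihood test, Benjamini-Hochberg adjusted p under 0.05 over all 14368 genes tested), against 2.09% of all genes (0.933% higher, 1.16% lower). At an unadjusted p under 0.05 there were 3, namely Bmpr2, Smad1 and Grem1, beside 2045 of the 14368 genes tested. At day 56 none passed either, against 0.0138% of all 14475 genes tested. An unadjusted p under 0.05 was found for 4 at that day, the same 3 and Smad5, beside 1649 of all genes tested. The median log2 fold change (IL6-KO minus WT) over the 10 genes was 0.00 at day 7 and -0.09 at day 56, beside 0.00 and -0.01 over all genes tested. At day 7, 1 gene lay higher and 2 lay lower in IL6-KO without overlap of the libraries. Over all genes tested, 9.09% lay higher and 9.66% lower in this way. At day 56, 2 lay higher and 2 lower, beside 8.3% and 8.55% of all genes.

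Bmpr2, the type II receptor, was measured at 163, 137 and 131 CPM in WT and at 183, 181 and 176 CPM in IL6-KO lung at day 7. Every IL6-KO library was above every WT library. The log2 fold change was 0.33 (SE 0.089), with an edgeR adjusted p of 0.112, and DESeq2 gave an adjusted p of 0.0264. It did not pass in limma-voom. In edgeR it passed in 1 of the 6 fits that left out 1 library, that without the first WT library (0.43, adjusted p = 0.0385). The adjusted p-values of these fits reached 0.336. At day 56 the WT libraries held 144, 130 and 234 CPM and the IL6-KO libraries 277, 274 and 317 CPM. Again no library overlapped, and the third WT library, which stood apart over all genes, was the nearest to the IL6-KO libraries. The log2 fold change was 0.78 (SE 0.22), with an edgeR adjusted p of 0.401 and a DESeq2 adjusted p of 0.0481. Without that WT library it was 1.09, with an adjusted p of 0.0102, and 1268 genes in all passed at that day. This was the only 1 of the 6 edgeR fits leaving out 1 library in which Bmpr2 passed, with adjusted p-values up to 0.826. Cardiac muscle markers (the sum of 7) held 12.3, 82.3 and 283 CPM in WT and 467, 372 and 213 CPM in IL6-KO at day 56. The third WT library lay inside the IL6-KO range, and among WT it was the highest in both this sum and Bmpr2. The first WT library was the lowest in the sum and the second in Bmpr2. The third IL6-KO library had the lowest sum of its group and the highest Bmpr2 level. At day 7 the sums overlapped, at 226 to 399 CPM in WT and 311 to 344 CPM in IL6-KO. All 6 cardiac markers that were tested at day 56 had positive log2 fold changes (median 1.49) and none passed the test. Their part in the Bmpr2 difference was not tested.

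Bmpr1a, a type I receptor with broad tissue expression, was at 74.9 ± 9.04 CPM in WT and 77.8 ± 9.64 CPM in IL6-KO lung at day 7 (SD, n = 3 each). At day 56 the groups held 64.4 ± 16.8 and 75.5 ± 3.52 CPM (SD, n = 3 each). Neither difference exceeded the spread between libraries, with log2 fold changes of 0.05 and 0.24 and edgeR adjusted p-values of 0.902 and 0.573. Without the third WT library of day 56 the value at that day was 0.47, with an adjusted p of 0.0396. Acvrl1, the endothelial type I receptor also called ALK1, ranged from 836 to 864 CPM in WT and from 853 to 985 CPM in IL6-KO at day 7. The day 56 values ranged from 980 to 1180 CPM and from 721 to 1118 CPM, so the genotypes overlapped at both days. Eng, the endothelial co-receptor endoglin, ranged from 497 to 587 CPM in WT and from 508 to 560 CPM in IL6-KO at day 7. Its log2 fold changes were 0.03 (SE 0.086) at day 7 and -0.01 (SE 0.16) at day 56.

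Among the 3 transducers, Smad1 was at 56.1, 60.5 and 60.3 CPM in WT and at 51.8, 54.3 and 48.4 CPM in IL6-KO lung at day 7. At day 56 it was at 53.7, 49.6 and 49.0 CPM in WT and at 39.4, 45.7 and 41.5 CPM in IL6-KO. All IL6-KO libraries lay below all WT libraries at both days. The log2 fold changes were -0.20 (SE 0.074) and -0.26 (SE 0.094), with edgeR adjusted p-values of 0.258 and 0.414. Smad5 did not separate the genotypes at day 7, with 40.1 ± 1.80 CPM in WT and 39.5 ± 4.28 CPM in IL6-KO (SD, n = 3 each). At day 56 it was at 29.5, 31.6 and 39.5 CPM in WT and at 40.7, 40.2 and 51.0 CPM in IL6-KO. These did not overlap, and the highest WT value was again that of the third library. The log2 fold change at day 56 was 0.40 (SE 0.15), with an edgeR adjusted p of 0.414, and without the third WT library it was 0.54 (adjusted p = 0.0553). Smad9 overlapped at both days, between 28.7 and 34.6 CPM at day 7 and between 32.4 and 44.4 CPM at day 56. The 3 Smads are close copies, and how the counting treated reads that fit more than 1 gene is not given in the sources used here.

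The targets did not separate by genotype in lung. Id1, a transcriptional inhibitor induced by BMP, was at 82.9, 87.5 and 85.5 CPM in WT and at 78.2, 78.6 and 88.5 CPM in IL6-KO at day 7. The day 56 values were 155, 215 and 116 CPM in WT and 174, 105 and 79.4 CPM in IL6-KO. These spread over a range that was wider than the difference between genotypes, and both groups overlapped. The log2 fold changes were -0.06 (SE 0.076) at day 7 and -0.44 (SE 0.32) at day 56, with edgeR adjusted p-values of 0.813 and 0.577. Id3, a related inhibitor, was at 127 ± 5.18 CPM in WT and 125 ± 3.05 CPM in IL6-KO at day 7 (SD, n = 3 each). At day 56 it was at 132 ± 23.0 and 110 ± 13.8 CPM (SD, n = 3 each), with a log2 fold change of -0.26 (SE 0.15, edgeR adjusted p = 0.497). Without the third WT library of day 56 the values at that day were -0.62 for Id1 and -0.37 for Id3, with adjusted p-values of 0.321 and 0.132.

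The antagonist Grem1 had the largest genotype difference of the 10 genes in lung at both days. At day 7 the WT libraries held 8.03, 8.99 and 10.2 CPM (126, 220 and 169 counts) and the IL6-KO libraries 3.75, 6.18 and 2.70 CPM (70, 106 and 55 counts). Every IL6-KO library lay below every WT library. The log2 fold change was -1.12 (SE 0.26), with an edgeR adjusted p of 0.0675 that missed the threshold. It passed in DESeq2 (adjusted p = 0.00187) and in limma-voom (adjusted p = 0.0422), at -1.11 and -1.21. In edgeR it passed in 1 of the 6 fits that left out 1 library, that without the second IL6-KO library (-1.49, adjusted p = 0.0199). The adjusted p-values of these fits reached 0.204. At day 56 the WT libraries held 2.81, 4.84 and 7.94 CPM and the IL6-KO libraries 1.69, 2.24 and 0.826 CPM. These did not overlap either, and the log2 fold change was -1.70 (SE 0.48, edgeR adjusted p = 0.401), or -1.27 without the third WT library (adjusted p = 0.123). Grem1 is known mainly from mesenchymal cells, and the summed markers of these cells were lower in IL6-KO at day 7. The summed level of 5 fibroblast genes was 5909 to 7429 CPM in WT and 4887 to 5775 CPM in IL6-KO at day 7, and that of 6 smooth muscle genes was 1900 to 2085 and 1738 to 1789 CPM. The single fibroblast genes were mixed, with negative differences for 3 of 5, among them Col1a1 (-0.51) and Col3a1 (-0.25), and positive ones for 2, among them Pdgfra (0.33). All 6 smooth muscle genes had negative differences at both days, with a median of -0.18 at day 7 and -0.46 at day 56. At day 56 the sums overlapped between genotypes, at 2079 to 2555 and 2070 to 2292 CPM for fibroblasts and at 1103 to 1575 and 903 to 1191 CPM for smooth muscle. The part of these cells in the Grem1 difference was not tested.

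**Figure D2:**
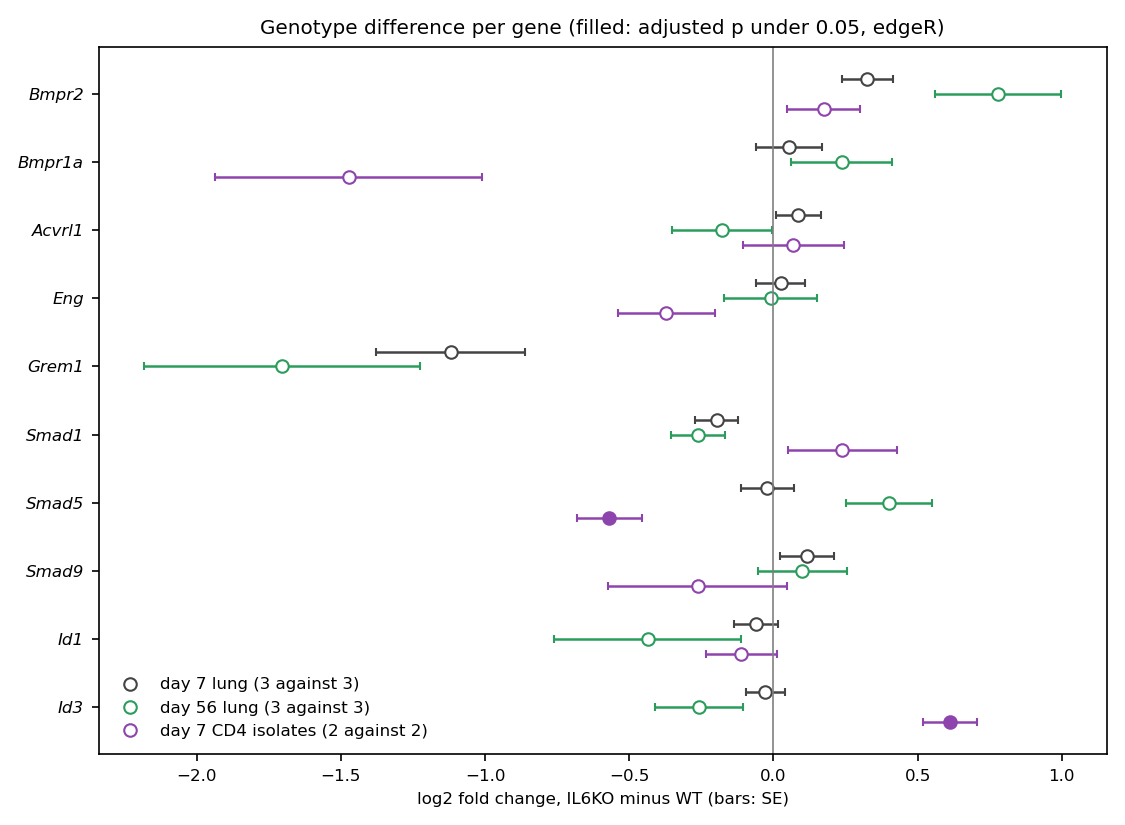
Log2 fold change of IL6-KO minus WT (horizontal axis, bars are SE) for each of the 10 genes (vertical axis) in day 7 lung, day 56 lung and day 7 CD4 isolates; filled points passed the edgeR test at an adjusted p under 0.05. In lung the values farthest from 0 are those of Grem1, at -1.12 and -1.70, and only Smad5 and Id3 of the isolates are filled.

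The genotype difference was also averaged over the days in 1 fit of the 12 lung libraries. This comparison was added after Bmpr2, Smad1 and Grem1 had been seen to differ in the same direction at both days, so its p-values for these genes are no independent support. In that fit Grem1 fell by 1.41 on the log2 scale (SE 0.29, edgeR adjusted p = 0.0365), beside 1.52% of all 13865 genes tested that passed (0.627% higher, 0.894% lower). It was the only one of the 10 genes that passed. Bmpr2 (0.56, SE 0.13) and Smad1 (-0.23, SE 0.056) lay just outside, with adjusted p-values of 0.0518 and 0.0624. Without the third WT library of day 56, Bmpr2 passed at 0.71 (adjusted p = 0.000418) and Smad1 at -0.24 (adjusted p = 0.0186). The Grem1 call was lost in 8 of the 12 fits that left out 1 library, with adjusted p-values from 0.0545 to 0.0997, and stayed without the second day 7 IL6-KO library, the first or the third day 56 WT library or the second day 56 IL6-KO library.

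Whether the genotype difference itself changed between the days was tested as an interaction. None of the 10 genes passed (edgeR, 0% of 13865 genes), and 1, Smad5, had an unadjusted p under 0.05, beside 1043 of all genes tested. The change of the difference was 0.43 for Smad5 (SE 0.18, adjusted p = 0.652), 0.46 for Bmpr2 (SE 0.25, adjusted p = 0.707) and -0.58 for Grem1 (SE 0.58, adjusted p = 0.832). Leaving out the third WT library of day 56 gave 0.76 for Bmpr2 (adjusted p = 0.0129), 0.56 for Smad5 (0.0741) and -0.17 for Grem1 (0.906).

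Day 56 was then compared with day 7 within each genotype, to see how the genes stood early and late in the model. Eng and Id1 rose in WT lung, and Eng and Bmpr2 rose in IL6-KO lung, which makes 2 of the 10 genes in each genotype. The background was 14.8% of 13865 genes in WT (6.72% higher, 8.05% lower) and 8.32% in IL6-KO (3.4% higher, 4.92% lower). Without overlap of the libraries, 4 of the 10 genes lay higher and 2 lower in WT, and 2 higher and 3 lower in IL6-KO. Over all genes these shares were 15.6% higher and 16.2% lower in WT, and 15.6% and 14% in IL6-KO. The median log2 fold change of the 10 genes was 0.16 in WT and 0.14 in IL6-KO, beside 0.01 and 0.03 over all genes. The days come from separate count tables, so day and table cannot be told apart.

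Eng was at 497, 497 and 587 CPM at day 7 and at 665, 972 and 732 CPM at day 56 in WT lung. In IL6-KO lung it was at 539, 508 and 560 CPM and at 730, 740 and 873 CPM. No library of day 7 reached the lowest of day 56 in either genotype. The log2 fold changes were 0.60 (SE 0.14, edgeR adjusted p = 0.0115) in WT and 0.57 (SE 0.14, adjusted p = 0.0215) in IL6-KO. The WT call was lost without the second day 7 library (adjusted p = 0.0546), and the IL6-KO call without the first or second library of day 7 (0.0772 and 0.101) or the third of day 56 (0.0775). The summed level of 9 endothelial markers was 4102 to 4306 CPM at day 7 and 3905 to 4459 CPM at day 56 in WT, which overlapped. In IL6-KO the sums also overlapped, at 4202 to 4404 and 4289 to 4680 CPM. The single markers moved both ways. Of the 9, 1 passed as higher and 3 as lower at day 56 in WT, and 2 as higher and 2 as lower in IL6-KO. The part of endothelial cells in the Eng difference was not tested.

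Id1 rose in WT lung from 85.3 ± 2.29 to 162 ± 49.9 CPM (n = 3 each, ± SD), which is 0.94 on the log2 scale (SE 0.26, edgeR adjusted p = 0.0352). The lowest day 56 library, at 116 CPM, was above the highest of day 7, at 87.5 CPM. The call was lost when any library other than the third of day 56 was left out, in 5 of the 6 fits, with adjusted p-values from 0.0818 to 0.136. In IL6-KO lung the Id1 difference was 0.57 (SE 0.26, adjusted p = 0.234), with overlap of the libraries. Whether the day difference itself differs between genotypes is the interaction above, which was -0.37 for Id1 (SE 0.37, adjusted p = 0.832).

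Bmpr2 rose in IL6-KO lung from 180 ± 3.57 to 289 ± 24.1 CPM (n = 3 each, ± SD), which is 0.71 on the log2 scale (SE 0.18, edgeR adjusted p = 0.0285). Leaving out any 1 of the 6 IL6-KO libraries moved its adjusted p to between 0.0547 and 0.0984. In WT lung the difference was 0.25 (SE 0.18, adjusted p = 0.383), with overlap, and it turned to -0.05 without the third day 56 library (adjusted p = 0.738). Over the 4 lung groups the Bmpr2 level was highest in day 56 IL6-KO, and day 7 IL6-KO and day 56 WT did not differ beyond their spread.

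Grem1 had lower values at day 56 in both genotypes without passing the test, at -0.81 in WT (SE 0.38, edgeR adjusted p = 0.183) and -1.39 in IL6-KO (SE 0.43, adjusted p = 0.0754). No library of day 56 reached the lowest of day 7 in its genotype. The fibroblast sums were also lower at day 56, between 2070 and 2555 CPM against 4887 to 7429 CPM at day 7. Smad1 was lower at day 56 without overlap in both genotypes, at -0.20 (SE 0.079) and -0.26 (SE 0.079), with adjusted p-values of 0.108 and 0.0642. In WT, Acvrl1 (0.36, edgeR adjusted p = 0.101) and Smad9 (0.32, adjusted p = 0.113) were higher without overlap. In IL6-KO, Id3 was lower without overlap (-0.16, adjusted p = 0.487). Without the third day 56 WT library, Bmpr1a (-0.43, adjusted p = 0.0244), Smad5 (-0.38, adjusted p = 0.0379) and Grem1 (-1.22, adjusted p = 0.0358) passed in WT.

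**Figure D3:**
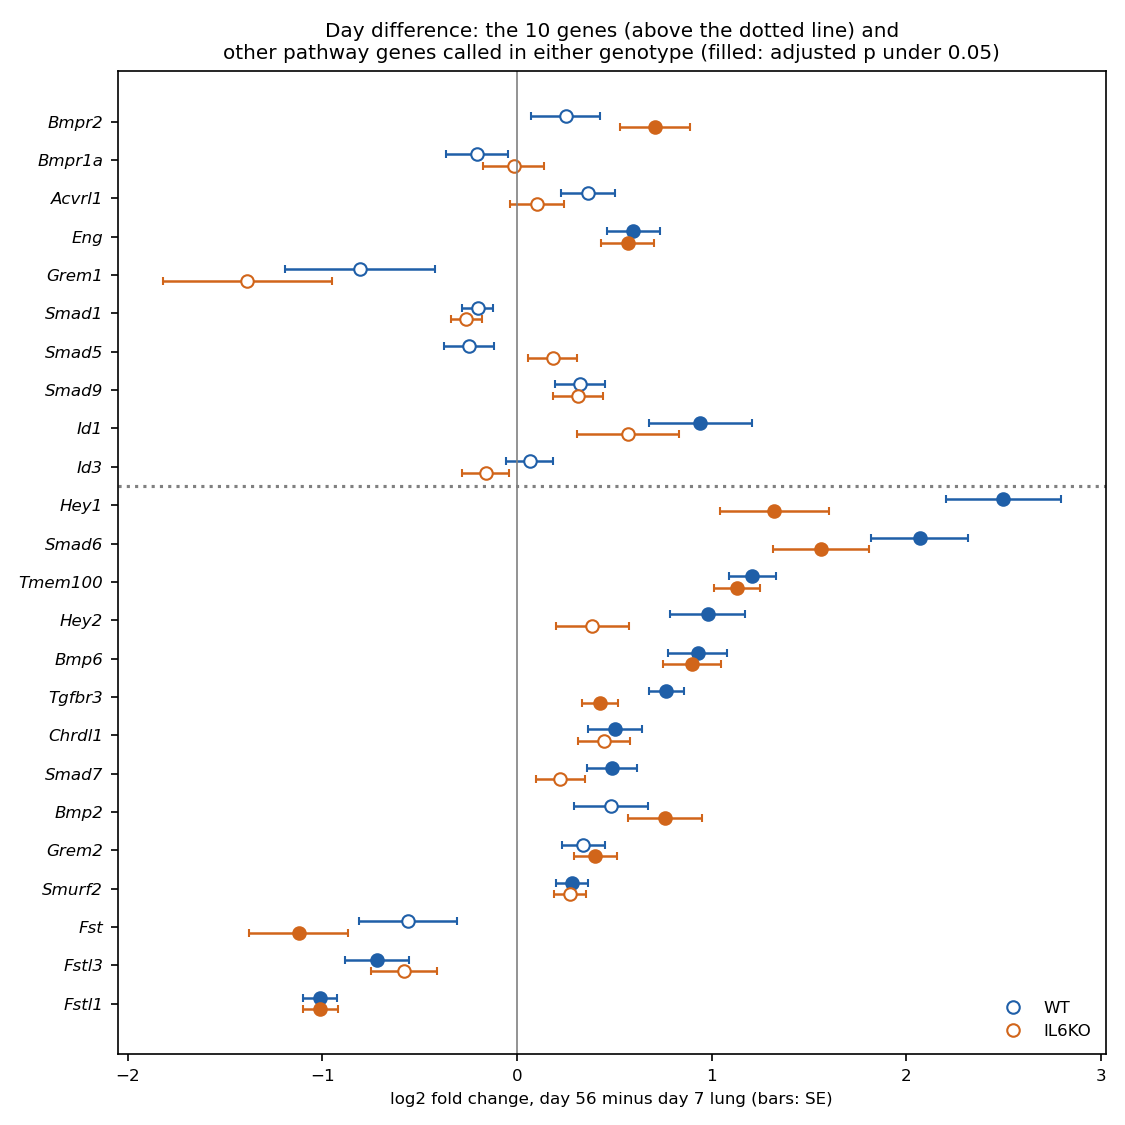
Log2 fold change of day 56 minus day 7 lung (horizontal axis, bars are SE) in WT and in IL6-KO for the 10 genes (above the dotted line) and for the other pathway genes that passed in either genotype (below it); filled points passed the edgeR test at an adjusted p under 0.05. Eng is filled in both genotypes, at 0.60 and 0.57, and Hey1 lies farthest to the right, at 2.50 in WT.

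The rest of the pathway was read from a list of 39 other genes, of which 38 were tested in lung. For genotype, 1 of the 38 passed at day 7 and none at day 56, beside 2.09% and 0.0138% of all genes. At an unadjusted p under 0.05 there were 14 of 38 at day 7, beside 2045 of 14368 genes tested, and 4 of 38 at day 56, beside 1649 of 14475. The median difference of the list was 0.02 at day 7 and -0.06 at day 56, beside 0.00 and -0.01 over all genes.

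The gene that passed was Tmem100, an endothelial membrane protein induced by BMP signalling through ALK1. It was at 173, 163 and 151 CPM in WT and at 219, 223 and 212 CPM in IL6-KO lung at day 7, without overlap. The log2 fold change was 0.42 (SE 0.073, edgeR adjusted p = 0.0233). The call was lost without the second or the third WT library (adjusted p = 0.0913 and 0.0758) and without the first or second IL6-KO library (0.0791 and 0.110). The sums of the endothelial markers overlapped at day 7, at 4102 to 4306 CPM in WT and 4202 to 4404 CPM in IL6-KO. Of the 9 single markers, 7 had positive and 2 negative differences (median 0.06), and none passed. Without overlap, 2 lay higher in IL6-KO and 0 lower, beside 9.09% and 9.66% of all genes. The part of endothelial cells in the Tmem100 difference was not tested. In the fit averaged over both days, added after the data were seen, Tmem100 rose by 0.38 (SE 0.084, adjusted p = 0.0445) and Fstl3, a follistatin-like antagonist, fell by 0.66 (SE 0.12, adjusted p = 0.0208). Of the 12 fits that left out 1 library, 9 lost the Tmem100 call, with adjusted p-values up to 0.126. The Fstl3 call was lost without the third WT library of day 7 (0.0518) or the third IL6-KO library of day 56 (0.0519).

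Between the days, 11 of the 38 other genes passed in WT (9 higher, 2 lower) and 9 in IL6-KO (7 higher, 2 lower), against the background of 14.8% and 8.32%. Their median was 0.03 in both genotypes. The largest increases in WT were those of Hey1 (2.50, SE 0.30), Smad6 (2.07, SE 0.25), Tmem100 (1.21, SE 0.12) and Hey2 (0.98, SE 0.19), all targets or feedback inhibitors of the pathway. Hey1 and Hey2 are also Notch targets. Smad6, an inhibitory Smad, was at 18.6, 18.4 and 21.7 CPM at day 7 and at 75.5, 116 and 52.4 CPM at day 56 in WT. In IL6-KO lung it ranged from 18.9 to 26.9 CPM and from 55.5 to 68.7 CPM. The days did not overlap in either genotype, as for 15.6% (higher) of all genes in WT and in IL6-KO. The largest increases in IL6-KO were those of Smad6 (1.56, SE 0.25), Hey1 (1.32, SE 0.28), Tmem100 (1.13, SE 0.12) and the ligand gene Bmp6 (0.90, SE 0.15). The genes that fell were the follistatin-like Fstl1 (-1.01, SE 0.088) and Fstl3 (-0.72, SE 0.17) in WT, and Fst (-1.12, SE 0.25) and Fstl1 (-1.01, SE 0.088) in IL6-KO. Fstl1 is known from mesenchymal cells, whose markers were lower at day 56 as given above, and their part in these differences was not tested. The Fstl3 call in WT was lost without the third day 7 library (edgeR adjusted p = 0.0545). In IL6-KO the Fst call was lost without the first day 7 library (adjusted p = 0.0779) and the Hey1 call without the first or the second (0.0622 and 0.0613).

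By a rule fixed with the test designs, the genes most like Bmpr2 and Id1 were sought over the 12 lung libraries after the mean of each day was subtracted, among 10394 genes. For Bmpr2 they were Mdm4 (Pearson's r = 0.987, Spearman's rho = 0.972), Itga1 (r = 0.985, rho = 0.986) and Ubr1 (r = 0.983, rho = 0.972). For Id1 they were Gadd45b (r = 0.977, rho = 0.965), Atp6v0e1 (r = 0.952, rho = 0.972) and Hpcal1 (r = 0.948, rho = 0.965). These are descriptions over libraries that share depth, day and genotype, and they come from the top of a long search.

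The CD4 isolates show where the pathway genes were read outside whole lung. The summed level of 6 T cell markers, Cd4 itself among them, was 2544 to 3194 CPM in the isolates and 42.3 to 71.0 CPM in day 7 lung. Macrophage markers were also present, at 1873 to 3224 CPM in the isolates and 646 to 791 CPM in day 7 lung. Alveolar epithelial markers summed to 2209 to 3326 CPM in the WT isolates and 685 to 693 CPM in the IL6-KO isolates, against 21209 to 26282 CPM in day 7 lung. So the isolates held RNA of T cells, macrophages and alveolar epithelium, and the labels name only CD4-positive cells. The macrophage marker Marco had 0 counts in 3 of the 4 isolates and 2 counts in the other. All 10 genes passed the test between isolate and lung in both genotypes, against 81.4% of 14772 genes in WT and 79.5% in IL6-KO. Grem1 was too low to be tested in the isolates alone and entered this fit through lung. Its direction was thus largely set by the filter on low counts. Smad5 was higher and the other 9 were lower in the isolates, beside 37.7% of all genes higher and 43.6% lower in WT, and 36.4% and 43.2% in IL6-KO. The libraries of isolate and lung did not overlap for any of the 10 genes, as for 41.2% (higher) and 47.1% (lower) of all genes in WT and 39.6% and 46.6% in IL6-KO. The median over the 10 genes was -2.88 in WT and -3.23 in IL6-KO, and it was the same with Grem1 set to the ratio or bound given below. Isolate and count table cannot be told apart.

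All 4 receptor genes were lower in the isolates. In WT, the log2 fold change of isolate minus lung was -5.59 for Acvrl1 (SE 0.14), -4.97 for Bmpr1a (SE 0.21), -4.45 for Eng (SE 0.14) and -2.63 for Bmpr2 (SE 0.11). In IL6-KO the values were -5.70 for Acvrl1, -6.58 for Bmpr1a, -4.93 for Eng and -2.87 for Bmpr2. The 9 endothelial markers summed to 142 to 195 CPM in the isolates. Smad1 differed by -2.48 in WT and -2.13 in IL6-KO, Smad9 by -3.12 and -3.58, and Id1 by -1.01 and -1.14. Smad5 was at 124 and 100 CPM in the WT isolates and at 72.7 and 68.9 CPM in the IL6-KO isolates, against 34.6 to 42.8 CPM in day 7 lung. Its log2 fold changes were 1.43 (SE 0.11) and 0.80 (SE 0.11). Id3 was the nearest to lung, at -0.74 in WT (SE 0.082) and -0.19 in IL6-KO (SE 0.080, edgeR adjusted p = 0.0458), and the IL6-KO call was lost in each of the 5 fits that left out 1 library. Grem1 had 1 and 2 counts in the WT isolates and 0 in both IL6-KO isolates. Day 7 lung was 60.3-fold higher in WT (95% counting interval 20.6 to 293) and at least 28.2-fold higher in IL6-KO (against 3 counts over the group, counting error only).

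Of the 39 other pathway genes, 5 were higher and 34 lower in the WT isolates than in lung, and 4 were higher and 32 lower in the IL6-KO isolates. This fit kept a gene that had enough counts in either lung or the isolates. In the isolates alone 22 of the 39 passed the filter, and in day 7 lung alone 38. For genes kept through only 1 of the 2, the direction was largely set by the filter, so these counts are no independent support. The higher ones included Id2, an Id gene known from lymphocytes, at 3.09 (SE 0.14) in WT and 3.16 (SE 0.14) in IL6-KO. The common-mediator Smad4 was higher at 1.43 (SE 0.087) and 1.04 (SE 0.088), and the ligand gene Bmp7 at 1.70 (SE 0.23) and 1.90 (SE 0.22). Bmp10, another ligand gene, was higher at 2.80 and 3.94 but rested on 13 to 31 counts per isolate. Among the lower ones, Bmper, a BMP-binding protein, and Hey1 had 0 counts in the WT isolates, and lung was at least 109-fold and at least 23.9-fold higher. Atoh8, a target, had 0 counts in the IL6-KO isolates, and lung was at least 83.7-fold higher. Tmem100 differed by -6.79 in WT and -8.45 in IL6-KO, Apln, the gene of the peptide apelin, by -6.26 in WT, and Bmp6 and Rgma, a co-receptor, by -7.97 and -7.56 in IL6-KO.

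**Figure D4:**
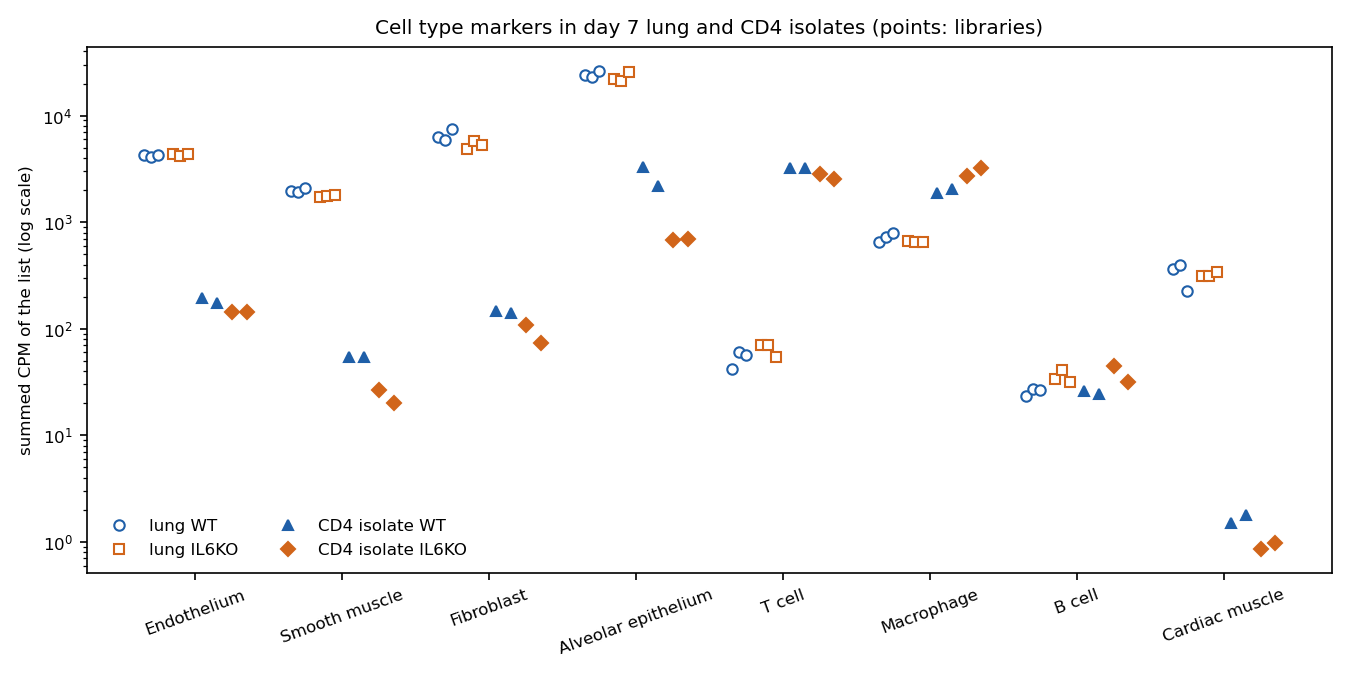
Summed CPM of each cell type marker list (vertical axis, log scale) in day 7 whole lung and in day 7 CD4 isolates, WT and IL6-KO; each point is a library. The T cell list lies at 2544 to 3194 CPM in the isolates, and alveolar epithelium (2209 to 3326 CPM in WT, 685 to 693 CPM in IL6-KO) and macrophage (1873 to 2054 and 2695 to 3224 CPM) differ between the isolates of the 2 genotypes.

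Between genotypes within the isolates, Smad5 fell and Id3 rose in IL6-KO, so that 2 of the 9 genes tested passed, against 6.4% of 12243 genes (3.5% higher, 2.91% lower). Grem1 was too low to be tested. Smad5 was at 124 and 100 CPM in WT and at 72.7 and 68.9 CPM in IL6-KO. The log2 fold change was -0.57 (SE 0.11, edgeR adjusted p = 0.0300). Id3 was at 74.4 and 82.7 CPM in WT and at 114 and 112 CPM in IL6-KO, with a log2 fold change of 0.61 (SE 0.093, edgeR adjusted p = 0.0137). The genotypes did not overlap for either gene, as for 27.2% (higher) and 28.8% (lower) of all genes in this small design. Both calls were lost without the first WT isolate (adjusted p = 0.175 and 0.118) and without the second (0.0594 and 0.0639).

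Of the other 7 genes, Bmpr1a had the largest difference, with 27 and 22 counts in the WT isolates and 6 and 11 in the IL6-KO isolates. Its log2 fold change was -1.47 (SE 0.46), with an edgeR adjusted p of 0.108. Eng was at 25.7 and 24.2 CPM in WT and at 15.5 and 20.6 CPM in IL6-KO (-0.37, SE 0.17, adjusted p = 0.233). Bmpr2, Smad1, Acvrl1, Smad9 and Id1 had adjusted p-values between 0.450 and 0.851. The median over the 9 genes was -0.11, beside 0.00 over all genes tested. Of 22 other pathway genes tested, none passed in edgeR, and 6 had an unadjusted p under 0.05, beside 2871 of all 12243 genes.

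Marker sums of several cell types differed by genotype in the isolates. The 6 T cell markers summed to 3191 to 3194 CPM in WT and 2544 to 2837 CPM in IL6-KO. The 6 macrophage markers summed to 1873 to 2054 and 2695 to 3224 CPM, and the 5 alveolar epithelial markers to 2209 to 3326 and 685 to 693 CPM. The 4 B cell markers summed to 24.3 to 26.1 and 31.4 to 44.6 CPM. Endothelial sums were 174 to 195 and 142 to 143 CPM, with 3 positive and 5 negative differences among the 8 genes tested. Fibroblast sums were 141 to 147 and 73.6 to 109 CPM. Smooth muscle sums were 54.0 CPM in both WT isolates and 20.2 to 26.4 CPM in IL6-KO. The part of these cell types in the Smad5, Id3 and Bmpr1a values was not tested. In a comparison added after the data were seen, the genotype difference in the isolates was set against that in day 7 lung, and 3 of the 10 genes passed (Id3 higher, Smad5 and Bmpr1a lower). Over all genes 6.42% passed (1.88% higher, 4.55% lower).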

How the data were processed

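Counts of reads per gene were used for 16 rat libraries in 3 tables (day 7 lung, day 56 lung, day 7 lung CD4 isolates). The authors deposited whole-number counts with replicates not pooled, and all sample columns were matched to labels, with 0 unmatched. The submitters' processing notes name GRCm38, a mouse build, for the rat samples too, and no source used here gives the aligner, the counter or the annotation. Mouse spleen libraries were not used here. Joined fits used the 20230 symbols shared by both lung days, or the 22071 shared by day 7 lung and the isolates.

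Genes passing filterByExpr were tested with edgeR 4.0.16 (glmQLFit, robust; glmQLFTest; TMM scaling; R 4.3.3), with Benjamini-Hochberg adjustment over all genes and a threshold of 0.05. Alternatives were DESeq2 1.42.0, limma-voom (limma 3.58.1), RLE size factors, no filter, a replicate block and leaving out each library. The scripts were tested on simulated counts with known changes. For genotype, false calls made up 6.57% of calls at day 7, 8.48% at day 56 and 15.1% in the isolates. Changes of 1 on the log2 scale were recovered in 86.5%, 65.2% and 68.0% of cases. SE is the absolute log2 fold change over the root of F. Levels are CPM on 1 TMM scale, ± SD. A count of 0 is bounded by 3 counts, and floors and intervals cover counting error only.

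The 10 genes and all lists were chosen with earlier results of these data known. All 10 are named. Other pathway genes that passed are named in order of absolute log2 fold change, up to 4 per direction and comparison, and genes of similar pattern are the top 3 by Pearson's r of log2(CPM + 1), with a mean of at least 5 CPM at both days. The comparison averaged over days and the genotype by isolate comparison were added after the data were seen. Same-numbered libraries did not deviate together in every pair (r from -0.152 to 0.261), so no block was used.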

Additional observations from a re-analysis of the deposited data

Results flagged for a closer look

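In 5 genes of the pathway the genotype difference in the CD4 isolates differed from that in day 7 lung by a test of the difference itself (an interaction term in 1 edgeR fit of the 10 day 7 libraries, added after the data were seen). Over all 14772 genes tested 6.42% passed, 1.88% higher and 4.55% lower, and the median over all genes was -0.11. Bmpr1a had a difference of differences of -1.61 (SE 0.42, edgeR adjusted p = 0.0407), on 6 to 27 counts per isolate. Smad5 had -0.63 (SE 0.16, adjusted p = 0.0342) and Id3 0.56 (SE 0.11, adjusted p = 0.0152). Among the other pathway genes, the ligand gene Bmp4 had -1.68 (SE 0.38, adjusted p = 0.0289) and the target Tmem100 -1.66 (SE 0.35, adjusted p = 0.0175). Tmem100 lay at 0.383 to 1.61 CPM in the isolates. Of the 10 fits that left out 1 library, 8 lost the Bmpr1a call, 8 the Smad5 call, 6 the Bmp4 call, 2 the Tmem100 call and 1 the Id3 call. Leaving out the first WT isolate lost all of them, with adjusted p-values of 0.211 for Bmpr1a, 0.164 for Smad5, 0.0847 for Id3, 0.138 for Bmp4 and 0.0932 for Tmem100. The other Tmem100 loss was without the first IL6-KO isolate (0.163). In limma-voom Bmpr1a (0.176), Bmp4 (0.140) and Tmem100 (0.0737) were lost. Marker sums of epithelium, macrophages, B cells, T cells, endothelium, smooth muscle and fibroblasts differ between the isolates of the 2 genotypes, as the plot shows. The part of these cell types in the differences was not tested.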

How the results depend on the processing

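Of the alternatives run for single genes, none changed a direction of a called value: 0 reversed. The number of the 10 genes that passed at day 7 was 0 in edgeR, 2 in DESeq2, 1 in limma-voom and 1 with the replicate block, and 0 to 1 when 1 library was left out. At day 56 it was 0, with 1 in DESeq2 and 0 to 2 when 1 library was left out. In the isolates it was 2, and 0 to 2 when 1 library was left out. The interaction with day gave 0, and 0 to 1. Between days it was 2 in WT, with 1 without a filter and 1 with the replicate block (Id1 lost, adjusted p = 0.0525 and 0.0504) and 0 to 5 when 1 library was left out. It was 2 in IL6-KO, with 4 in DESeq2 (Smad1 0.0210, Grem1 0.0131) and 0 to 2. Between isolate and lung it was 10 in both genotypes, 10 to 10 in WT and 9 to 9 in IL6-KO. Averaged over days it was 1, with 3 in DESeq2, 2 in limma-voom, 0 with the replicate block and 0 to 3. The isolate interaction gave 3, and 0 to 3. Of the other pathway genes, 1 passed for genotype at day 7 (3 in DESeq2, 3 with the block, 0 to 3 when 1 library was left out), 0 at day 56 (2 in DESeq2, 0 to 3), 0 in the isolates (1 without a filter, 0 to 1), 2 averaged over days (5 in DESeq2, 0 with the block, 0 to 6) and 2 in the isolate interaction (4 in DESeq2, 0 in limma-voom, 1 to 3).

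Over all genes, day 7 calls numbered 300, with 565 in DESeq2, 543 with the replicate block and 94 to 372 when 1 library was left out. Day 56 calls numbered 2, with 175 in DESeq2, 4 in limma-voom, 7 without a filter, 0 with the block and 1 to 1268. The day interaction gave 0, with 47 in DESeq2 and 0 to 597. Averaged over days there were 211, with 825 in DESeq2, 118 with the block and 69 to 1881. The isolates gave 784 and 76 to 970, the day comparisons 2048 and 1235 to 3656 in WT and 1153 and 704 to 1008 in IL6-KO. The isolate interaction gave 949, with 600 in limma-voom and 341 to 1113. The replicate numbers were not shown to pair the libraries: same-numbered deviations correlated at 0.0615, 0.101 and 0.261 at day 7, at -0.152, -0.0684 and -0.0331 at day 56 and at -0.0325 in the isolates. Between WT and IL6-KO the replicate block moved Bmpr2 at day 7 to an adjusted p of 0.0390 (edgeR). In the fit averaged over days it moved Grem1 to 0.0641, Tmem100 to 0.0759 and Fstl3 to 0.0507, and in the isolate interaction Bmp4 to 0.0729. Depth limits Grem1 and Bmpr1a most, at 0 to 27 counts per isolate.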
